A study of Homo sapiens with 6 samples.

Results

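The genes followed here were the Notch receptors and their ligands: the receptors NOTCH1, NOTCH2, NOTCH3 and NOTCH4, the Delta-like ligands DLL1, DLL3 and DLL4, and the Jagged ligands JAG1 and JAG2. All probe sets whose platform annotation gave 1 of these 9 symbols and no other were taken, 25 of the 54613 probe sets on the array that were not controls, and 9 of 19775 named genes. The rule for taking probe sets used no measured value. Expression was read in SUM-LM1, human breast cancer cells derived from SUM159, on a human Affymetrix 3′ expression array. Activin B-treated cells received recombinant human activin B at 50 ng/ml, and vehicle-treated cells received only the BSA/PBS vehicle. Both groups were kept as spheres on ultra-low attachment plastic, seeded in HuMEC medium with 0.1% BSA at 12500 cells per ml, and were harvested after 6 h. Each group held 3 biological replicates of this single cell line.

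Notch signaling passes between cells that touch. A ligand on one cell binds a Notch receptor on its neighbor, the receptor is then cut first by an ADAM protease and next by gamma-secretase, and the freed intracellular part joins the DNA-binding protein RBPJ to switch on genes of the HES and HEY families. In mammary tissue, the pathway is known for its part in cell fate choices, and in breast cancer it has been linked to sphere growth. Activin B belongs to the TGF-β family and signals through receptors that phosphorylate SMAD proteins. The comparison asked whether the cancer cells altered the transcripts of their Notch receptors and ligands within hours of meeting activin B.

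The promoters of 7 of the 9 genes were matched in RefSeq (GRCh38.p14); DLL1 and DLL3 had no entry. In the 250 bases before the annotated gene start, 4 motifs were searched on both strands. GGCGCC is a GC-rich element of SMAD1 and SMAD5, and CAGAC or its reverse complement GTCTG holds the core site of SMAD3 and SMAD4. TGGGAA or its reverse complement TTCCCA is the core of the RBPJ site, and CANNTG is the E-box of basic helix-loop-helix factors. GGCGCC was found in 2 of the 7 promoters and in 16.4% of all 35116 promoters in the table, and CAGAC or GTCTG in 1 of the 7 and 38.0% of all. The RBPJ core was in 0 of the 7 and in 20.8% of all, and an E-box in 2 of the 7 and in 61.8% of all. The 3 promoters that held a motif of either SMAD pair are shown, with every motif match in capitals and no overlap between matches. They were chosen because activin B acts through SMAD proteins and these genes are set beside their measured changes in what follows. Which SMAD proteins acted here was not tested. A match is a description of the letters only.
NOTCH1, chr9:136546049-136546298, minus strand: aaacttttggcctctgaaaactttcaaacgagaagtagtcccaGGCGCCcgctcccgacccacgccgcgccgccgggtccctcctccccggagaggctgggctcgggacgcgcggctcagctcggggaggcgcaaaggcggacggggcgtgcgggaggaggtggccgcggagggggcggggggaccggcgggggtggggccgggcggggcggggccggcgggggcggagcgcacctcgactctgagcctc
DLL4, chr15:40929090-40929339, plus strand: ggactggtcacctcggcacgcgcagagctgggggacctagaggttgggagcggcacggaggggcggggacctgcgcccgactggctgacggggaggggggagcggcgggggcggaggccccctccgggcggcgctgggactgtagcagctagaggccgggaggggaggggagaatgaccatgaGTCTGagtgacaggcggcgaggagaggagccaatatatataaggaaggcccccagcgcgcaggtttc
JAG2, chr14:105168777-105169026, minus strand: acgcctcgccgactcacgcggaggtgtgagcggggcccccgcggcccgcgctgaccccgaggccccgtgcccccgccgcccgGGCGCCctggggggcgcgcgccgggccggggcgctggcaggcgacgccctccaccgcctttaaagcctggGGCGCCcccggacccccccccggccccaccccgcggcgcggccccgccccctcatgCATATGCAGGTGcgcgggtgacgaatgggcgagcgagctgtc
NOTCH1 held GGCGCC once, DLL4 held GTCTG once, and JAG2 held GGCGCC at 2 places and an E-box at 2 places, CATATG and CAGGTG, which stood next to each other. The other E-box was in the promoter of NOTCH4.

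The deposited values are log2 signals after robust multiarray averaging (RMA), so a difference of 1 is a doubling of signal. They ran from 5.79 to 14.22, with array medians between 6.69 and 6.70. A probe set is called dim where its mean over the 6 arrays lay under 6.69, the median over all probe sets. Probes differ in how well they bind, so the signals of different probe sets are described as bright, clear or dim but were not compared as transcript levels. The label was checked against markers of the line. VIM, CD44, FN1 and KRT18 were bright, with mean signals in their brightest probe sets of 13.90, 12.49, 12.56 and 11.99 in activin B and 13.89, 12.50, 12.60 and 12.09 in vehicle, whereas EPCAM and the progesterone receptor gene PGR were dim in every probe set. The other 4 markers of the list lay between, each by its brightest probe set: EGFR with means of 9.32 in activin B and 9.35 in vehicle, ERBB2 with 8.07 in activin B and 7.96 in vehicle, KRT5 with 7.35 in activin B and 7.55 in vehicle, and the estrogen receptor gene ESR1, near the array median, with 6.84 in activin B and 6.81 in vehicle. Activin B replicate 3 stood apart, at 21.7 on a first principal component on which the remaining 5 arrays lay between -10.6 and 5.70. Values without that array are given for the brighter DLL1 probe set and for NOTCH1 218902_at. The remaining results include it, except where single arrays were left out.

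No Notch receptor or ligand passed the test. At an adjusted p under 0.05 by limma over all probe sets, 0 of the 25 were higher and 0 were lower in activin B, where 0.0732% of all probe sets were called higher and 0.0476% lower. At an unadjusted p under 0.05, 0 of the 25 were higher and 2 were lower, both of DLL1. Over all 54613 probe sets, 1534 were higher and 1350 lower at that cutoff. The median log2 change was -0.032 over the 25 probe sets, 0.032 over the 10 of receptors and -0.056 over the 15 of ligands, against -0.001 over all probe sets. All 3 activin B arrays lay below all 3 vehicle arrays in 2 of the 25, again both of DLL1, where 4.89% of all probe sets did so. They lay above in 1, of NOTCH2, where 4.91% of all did so. RNA was taken from whole cultures, in which fewer cells of a type and less RNA per cell cannot be told apart.

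**Figure D1:**
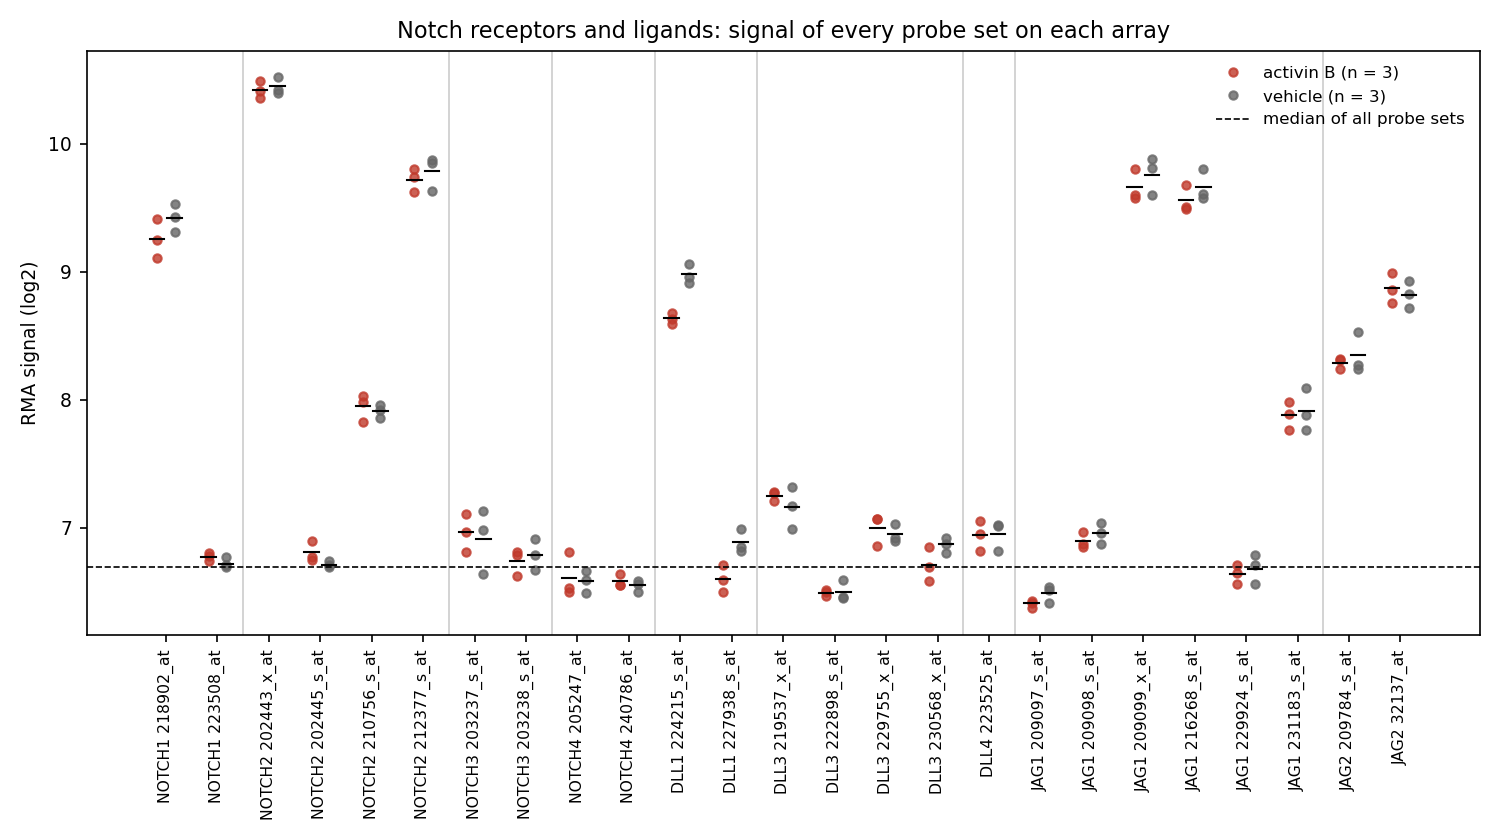
RMA signal (log2, y axis) of the 25 probe sets of Notch receptors and ligands (x axis) on each array. Points are arrays, 3 activin B in red on the left and 3 vehicle in grey on the right of each probe set, short bars are group means and the dashed line is the median of all probe sets at 6.69; the red and grey points separate downwards in both DLL1 probe sets.

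DLL1, a Delta-like ligand that activates Notch receptors on neighboring cells, had lower signals in activin B in both of its probe sets. Its brighter probe set, 224215_s_at, had log2 signals of 8.59, 8.63 and 8.68 in activin B, against 8.91, 8.96 and 9.06 in vehicle. The groups did not overlap, and the gap between the highest activin B array and the lowest vehicle array was wider than the range within either group. The log2 change was -0.34 ± 0.06 (SE, 95% interval -0.48 to -0.21), 1.27-fold lower, with an adjusted p of 0.0698 by limma, just outside the threshold. The other probe set, 227938_s_at, lay close to the median of the array, with 6.50, 6.71 and 6.59 in activin B, against 6.82, 6.99 and 6.85 in vehicle. Here, too, every activin B array was below every vehicle array. Its log2 change was -0.29 ± 0.07 (SE, 95% interval -0.45 to -0.14), 1.22-fold lower, with an adjusted p of 0.335 by limma. Both probe sets read the same RNA, so they are not independent evidence, but they gave changes that differed by less than their standard errors.

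The size of the DLL1 difference varied little with the processing. Leaving out each array in turn, the log2 change of 224215_s_at ran from -0.38 to -0.30 and its adjusted p by limma from 0.107 to 0.358, which includes -0.37 (adjusted p = 0.107) without activin B replicate 3. That of 227938_s_at ran from -0.35 to -0.24, with an adjusted p by limma from 0.348 to 0.994. With weights that count less reliable arrays less, the brighter probe set passed (log2 change -0.35, adjusted p = 0.0440 by limma). With the mean of both probe sets per array the log2 change was -0.32 (adjusted p = 0.0724 by limma), and with 1 probe set per gene it was -0.34 (adjusted p = 0.0517 by limma).

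**Figure D2:**
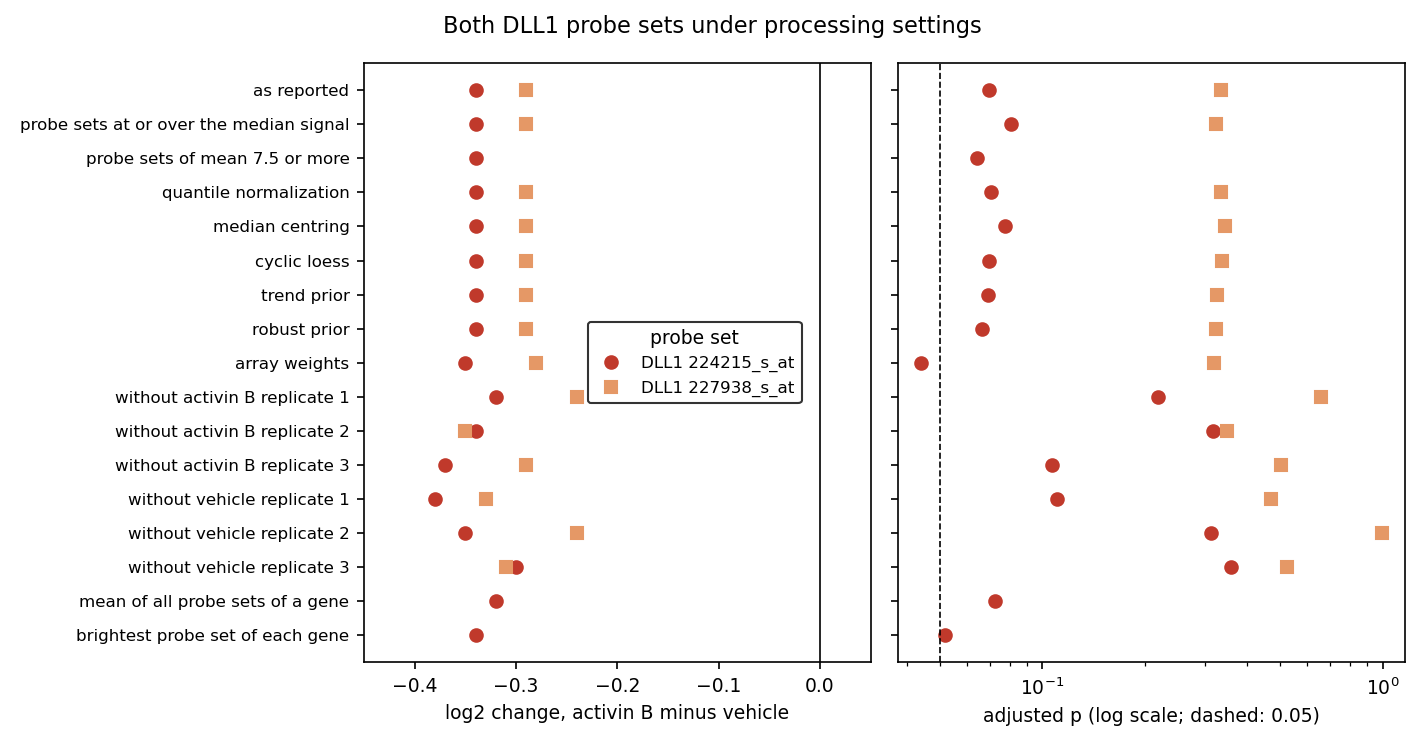
Log2 change of both DLL1 probe sets, activin B minus vehicle (left x axis), and their adjusted p by limma on a log scale (right x axis, dashed line at 0.05) as reported and under other processing settings without a replicate block (y axis). Circles are 224215_s_at and squares 227938_s_at, which has no value where a setting removes it; every change lies between -0.38 and -0.24, and array weights put 224215_s_at under the line.

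The other Delta-like ligands gave no such separation. DLL3, an atypical member known to act within the cell that makes it rather than to activate its neighbors, was read by 4 probe sets with log2 signals between 6.45 and 7.32. The groups overlapped in all 4, and the log2 changes were 0.10 ± 0.08 for 219537_x_at, -0.01 ± 0.06 for the dim 222898_s_at, 0.05 ± 0.07 for 229755_x_at and -0.16 ± 0.07 for 230568_x_at (SE). The probe sets thus differed in sign. The last had signals of 6.85, 6.58 and 6.69 in activin B, against 6.92, 6.87 and 6.80 in vehicle, with an adjusted p of 0.947 by limma. Of the 4 probe sets, 3 carry the suffix _x_at, which marks probes that may also bind unrelated transcripts. DLL4, best known as the ligand of sprouting endothelial cells, had signals of 6.95, 6.82 and 7.05 in activin B, against 6.82, 7.02 and 7.01 in vehicle. The groups overlapped almost fully, with a 95% interval of the log2 change from -0.17 to 0.16. Both DLL3 and DLL4 lay near the array median, so a small change could be missed.

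JAG1, a Jagged ligand that is frequently studied in breast cancer, was read by 6 probe sets. Those with the brightest signals were 209099_x_at and 216268_s_at. The first had 9.80, 9.60 and 9.58 in activin B, against 9.88, 9.81 and 9.60 in vehicle, a log2 change of -0.10 ± 0.08 (SE, 95% interval -0.28 to 0.08). The second had 9.68, 9.51 and 9.49 in activin B, against 9.80, 9.61 and 9.58 in vehicle, a log2 change of -0.10 ± 0.08 (SE, 95% interval -0.26 to 0.06). In both, replicate 1 of each group was the highest and the groups overlapped. The third brightest, 231183_s_at, had 7.89, 7.76 and 7.98 in activin B, against 8.09, 7.88 and 7.76 in vehicle. The remaining 3 lay between 6.37 and 7.04, 2 of them dim. Over all 6 the log2 changes lay between -0.10 and -0.03, every one below 0 and none past the test (lowest adjusted p = 0.995 by limma). The signs of the 2 smallest, for 231183_s_at and 229924_s_at, turned when single arrays were left out.

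JAG2, the other Jagged ligand, whose promoter held the SMAD1/5 element GGCGCC, had clear signals in both of its probe sets. In 209784_s_at they were 8.31, 8.32 and 8.24 in activin B, against 8.53, 8.27 and 8.24 in vehicle. In 32137_at they were 8.99, 8.86 and 8.76 in activin B, against 8.93, 8.72 and 8.83 in vehicle. The groups overlapped in both and the changes had opposite signs, -0.06 ± 0.08 and 0.05 ± 0.08 on the log2 scale (SE). The 95% intervals, -0.22 to 0.11 and -0.12 to 0.21, did not reach the -0.34 measured for DLL1, although the difference between the genes was not tested.

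Among the receptors, NOTCH1 and NOTCH2 had clear signals. NOTCH1, the receptor most studied in T cell leukemia and mammary fate, was read at 9.25, 9.41 and 9.11 in activin B, against 9.53, 9.31 and 9.43 in vehicle, in probe set 218902_at. Activin B replicate 3 was the lowest array and activin B replicate 2 lay within the vehicle range. The log2 change was -0.16 ± 0.08 (SE, 95% interval -0.34 to 0.01; adjusted p = 0.959 by limma), and it was -0.24 to -0.09 without single arrays, smallest without activin B replicate 3. The other probe set, 223508_at, lay near the array median at 6.80, 6.78 and 6.74 in activin B, against 6.71, 6.77 and 6.69 in vehicle, with a log2 change of 0.05 ± 0.06 (SE). The probe sets thus disagreed in sign.

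NOTCH2 was read by 4 probe sets. The brightest, 202443_x_at, had 10.36, 10.41 and 10.49 in activin B, against 10.40, 10.42 and 10.52 in vehicle. Next came 212377_s_at, with 9.62, 9.74 and 9.80 in activin B, against 9.63, 9.87 and 9.85 in vehicle. In both, the groups overlapped and the log2 changes were small, -0.03 ± 0.07 and -0.06 ± 0.08 (SE). Probe set 210756_s_at had a log2 change of 0.04 ± 0.07 (SE). The dimmest of the 4, 202445_s_at, had 6.77, 6.90 and 6.75 in activin B, against 6.74, 6.71 and 6.69 in vehicle, and was the only member in which all activin B arrays lay above all vehicle arrays. The lowest activin B array barely cleared the highest vehicle array, and the log2 change of 0.09 ± 0.06 (SE) had an adjusted p of 0.995 by limma. NOTCH2 has near-identical partial copies, the NOTCH2NL genes, and probe sets may read these as well. One more probe set, 227067_x_at, is annotated to NOTCH2 and NOTCH2NL genes together and was not counted as a member; its log2 change was 0.02 ± 0.07 (SE).

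NOTCH3 and NOTCH4 lay near or under the array median. NOTCH3, a receptor known for its role in vascular smooth muscle, had signals from 6.62 to 7.13 over both of its probe sets. In 203237_s_at these were 7.11, 6.81 and 6.97 in activin B, against 6.98, 7.13 and 6.64 in vehicle. This probe set had the widest spread within groups and a standard error of 0.11, so its log2 change of 0.05 could not be told from 0 (95% interval -0.18 to 0.28). NOTCH4, the receptor known from endothelial cells and, in mouse, as a mammary oncogene, was dim in both of its probe sets, with signals from 6.49 to 6.81 and log2 changes of 0.03 ± 0.08 and 0.03 ± 0.06 (SE). Low signals of this kind do not show whether the transcript was present.

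**Figure D3:**
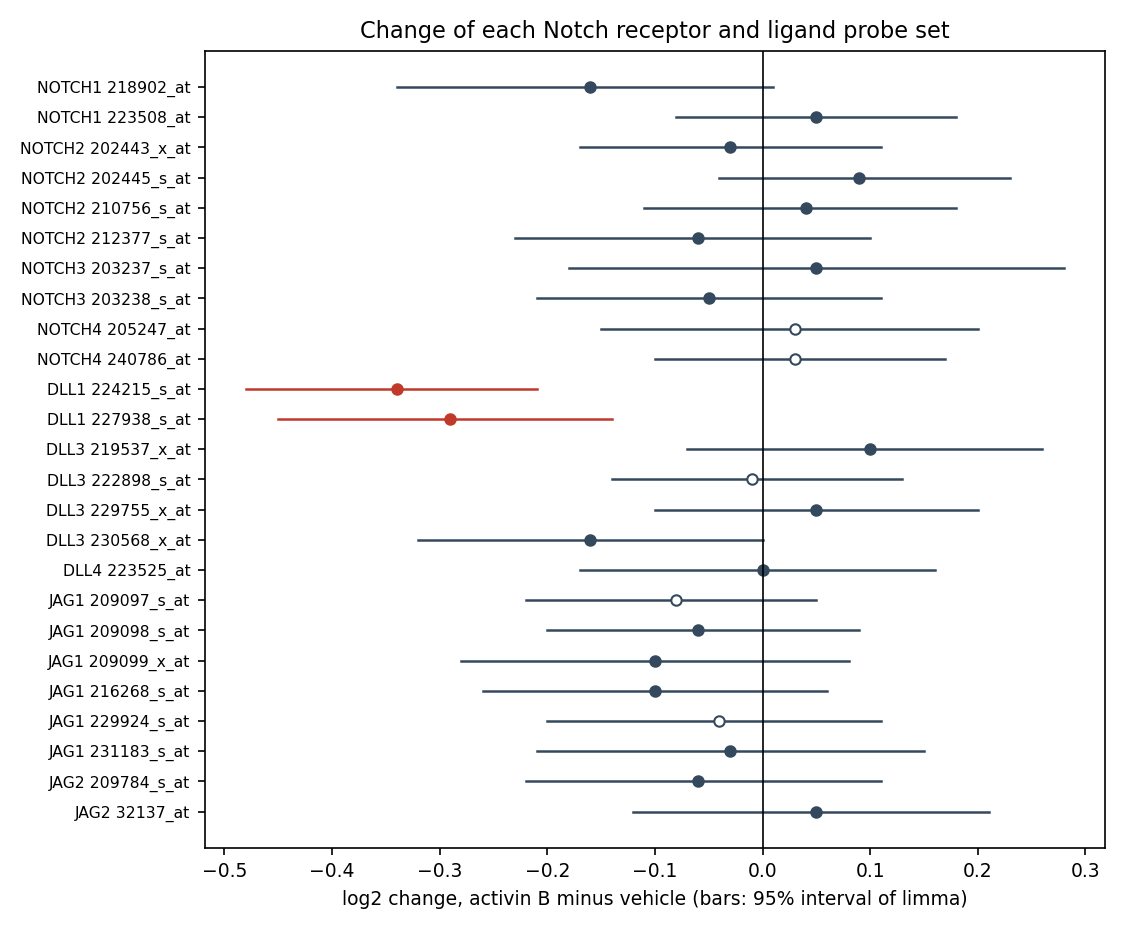
Log2 change of each of the 25 probe sets, activin B minus vehicle (x axis), with the 95% interval of limma as a bar; open points are dim probe sets and DLL1 is red. The intervals of both DLL1 probe sets, -0.48 to -0.21 and -0.45 to -0.14, lie below 0, and no interval of the receptors or of JAG1, JAG2 and DLL4 does.

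DLL4 and NOTCH4 are endothelial genes in many tissues, so endothelial markers were read in the same arrays. Of the 12 marker genes, 9 were dim in every probe set, among them CDH5, KDR, TEK and VWF, which define the cell type. The exceptions were PECAM1, ERG and ESAM. Summed over the 25 probe sets of the list on the linear scale, the signal was 2868 to 2946 in activin B and 3037 to 3090 in vehicle, without overlap. A linear sum follows the brightest probe sets most, and these were of ERG and PECAM1. In the dim probe sets of CDH5, KDR, TEK and VWF the log2 changes ran from -0.15 to 0.09. Probe set 208981_at of PECAM1, an adhesion protein of endothelial and blood cells, had 7.49, 7.5 and 7.48 in activin B, against 7.70, 7.89 and 7.89 in vehicle (log2 change -0.34 ± 0.07, SE; adjusted p = 0.109 by limma). Another, 208982_at, had -0.19, and 1559921_at had 0.08, each without overlap. ERG, an ETS factor of endothelial cells, had -0.24 in 241926_s_at (adjusted p = 0.837 by limma) and EMCN, a sialomucin, had -0.14 in a dim probe set, again without overlap. The groups overlapped in the other ERG probe sets, with -0.16 in its brightest, 213541_s_at, -0.09 in 211626_x_at and -0.03 in 222079_at. They also overlapped in the other EMCN probe sets, with -0.04 and 0.01. In all, 4 of the 25 endothelial probe sets (16%) had every activin B array below every vehicle array. In 1 (4%) they lay above, beside 4.89% below and 4.91% above of all probe sets. By limma, 0 of the 25 were called, where 0.0732% of all probe sets were called higher and 0.0476% lower. In 208981_at the difference ran the same way as in DLL1. These were cultures of a single cancer cell line, and a relation of the endothelial markers to the DLL1 result was not tested. Of 6 measured leukocyte markers, 5 were dim in every probe set, PTPRC included. The exception, CD3E 205456_at, had 7.03, 7.02 and 6.80 in activin B, against 6.75, 6.70 and 6.79 in vehicle. Its log2 change was 0.20 ± 0.07 (SE, adjusted p = 0.799 by limma). It was the only 1 of the 12 leukocyte probe sets (8.33%) without overlap, beside 9.79% of all probe sets. The summed leukocyte signal was 974 to 1047 in activin B and 969 to 987 in vehicle.

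The target genes through which Notch activity is commonly read did not pass either. Of 13 such genes with 21 probe sets, 0 rose and 0 fell by limma, beside 0.0732% and 0.0476% of all probe sets. The median log2 change was 0.003, against -0.001 over all probe sets. At an unadjusted p under 0.05, 1 of the 21 was higher and 2 were lower, beside 1534 and 1350 of all 54613 probe sets. HES1, the repressor that is the classical target, had 9.82, 9.60 and 9.57 in activin B, against 9.56, 9.77 and 9.54 in vehicle, in its brightest probe set 203394_s_at. HEY1, a related repressor that BMP and SMAD signals can induce as well, had 7.70, 7.51 and 7.59 in activin B, against 7.38, 7.40 and 7.49 in vehicle, in 218839_at. All its activin B arrays lay above the vehicle arrays there, and the log2 change was 0.17 ± 0.07 (SE; adjusted p = 0.880 by limma). Its second probe set, 44783_s_at, had 0.10 ± 0.07 (SE) and overlapping groups. HES6, a relative that counters HES1, had -0.16 ± 0.07 (SE; adjusted p = 0.914 by limma), with all activin B arrays below the vehicle arrays. HEYL was dim in both of its probe sets, which gave -0.25 ± 0.09 and 0.07 ± 0.07 (SE). MYC and CCND1, growth genes that Notch can induce and the brightest of the list, had -0.10 ± 0.08 and 0.09 ± 0.06 (SE).

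The parts of the pathway that carry the signal gave the same count. Of 8 measured nuclear effectors, 8 proteases and gamma-secretase subunits, 9 glycosyltransferases that modify the receptors, 13 genes of ligand and receptor trafficking and 8 non-canonical ligands, 0 rose and 0 fell by limma. Together with the targets, these were 59 genes with 134 probe sets, with a median log2 change of -0.013, against -0.001 over all probe sets. Of all probe sets, 0.0732% were called higher and 0.0476% lower. At an unadjusted p under 0.05, 5 of the 134 were higher and 11 lower, beside 1534 and 1350 of all 54613. All activin B arrays lay above the vehicle arrays in 4 of the 134 (2.99%) and below in 9 (6.72%). Over all probe sets these shares were 4.91% and 4.89%. RBPJ, the DNA-binding partner of the receptors, had 10.49, 10.44 and 10.49 in activin B, against 10.56, 10.57 and 10.36 in vehicle, in its brightest probe set. ADAM10, the protease that makes the first cut, had a log2 change of 0.12 ± 0.07 (SE) in its brightest probe set and 0.07 and -0.05 in the others. LFNG, a fucose-extending enzyme that tunes which ligand a receptor answers, had 0.15 ± 0.07 (SE, adjusted p = 0.934 by limma) in 215270_at, without overlap. In 228762_at it had 0.08.

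The remaining genes named from these lists gave small values of both signs. The coactivator MAML2 had a log2 change of 0.11 in 235457_at, without overlap, and -0.03 in its dim probe set. The coactivator MAML3 had -0.15 in the dim 207946_at and -0.11 in 242794_at, both without overlap, and -0.09 in 228508_at. The 5 probe sets of the demethylase KDM5A differed in sign, with -0.17 in 215698_at and 0.15 in 226371_at at the ends. Those of the corepressor CTBP1 ran from -0.02 to 0.04. Of the gamma-secretase subunits, PSEN2 had -0.07 to -0.05, and APH1A had -0.19 in a dim probe set, -0.10 in its brightest one and 0.11 in the third. The xylosyltransferases XXYLT1 and GXYLT2 had -0.14 in the only probe set of XXYLT1, without overlap, and -0.15 and -0.04 in those of GXYLT2. EOGT and POGLUT1, which add other sugars to the receptors, had 0.05 for EOGT and -0.05 and 0.07 for POGLUT1. MIB1, the ubiquitin ligase that Delta and Jagged ligands need for their activity, had -0.07 to 0.07. The adjusted p by limma of these probe sets was 0.874 or more.

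The smallest p of these lists belonged to FBXW7, the ubiquitin ligase subunit that marks the intracellular part of Notch for destruction. Its probe set 229419_at had 9.07, 9.24 and 9.05 in activin B, against 9.27, 9.36 and 9.48 in vehicle. The groups did not overlap there, with a log2 change of -0.25 ± 0.07 (SE; adjusted p = 0.592 by limma), but they did in its other 3 probe sets, whose log2 changes were -0.15, -0.04 and 0.02. AAK1, a kinase of endocytosis, and NEURL1, a ubiquitin ligase of ligands, came next within the trafficking list. AAK1 211186_s_at had 0.21 ± 0.07 and NEURL1 204888_s_at had -0.18 ± 0.07 (SE), both dim and both without overlap. The other probe sets of AAK1 gave -0.09 to 0.12, and that of NEURL1 gave -0.06. Among non-canonical ligands, CCN3, a secreted protein that can bind NOTCH1, had 9.60, 9.66 and 9.54 in activin B, against 9.74, 9.76 and 9.83 in vehicle, and DNER, a transmembrane ligand known from neurons, had 9.93, 9.97 and 9.95 in activin B, against 10.04, 10.05 and 10.18 in vehicle. Both had non-overlapping groups in these probe sets, 214321_at for CCN3 and 226281_at for DNER, but missed the threshold. The log2 change was -0.17 ± 0.06 for CCN3 (SE, adjusted p = 0.832 by limma) and -0.14 ± 0.06 for DNER (SE, adjusted p = 0.934 by limma). In the other CCN3 probe set, 204501_at, the groups overlapped, with a log2 change of -0.15. The microfibril protein MFAP5, dim throughout, had -0.13, -0.02 and 0.01.

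**Figure D4:**
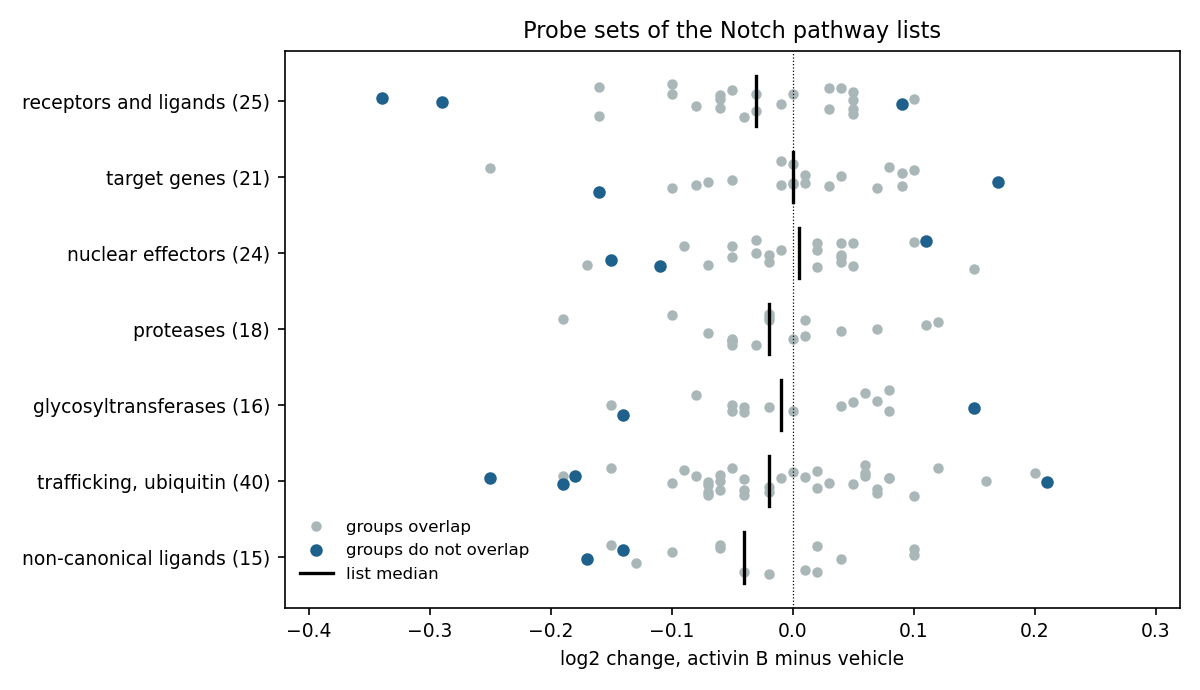
Log2 change, activin B minus vehicle (x axis), of every probe set of the Notch receptors and ligands and of 6 other Notch pathway lists (y axis, number of probe sets in brackets). Points are probe sets, blue where the 3 activin B arrays did not overlap with the 3 vehicle arrays and grey where they did, and each black bar is a list's median; the DLL1 probe sets lie farthest to the left at -0.34 and -0.29.

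The genes whose pattern over the 6 arrays was most like that of DLL1 224215_s_at were sought among 620 probe sets of other genes that were not dim and had a range of at least 0.5. The 5 highest were GJB2, EHF, ADM, RAB30 and SMAD1, with Pearson correlations of 0.986, 0.973, 0.973, 0.967 and 0.966 over 6 arrays. These values describe likeness only, since all 6 genes share the split between the groups and the same libraries. GJB2, a gap junction protein, had 8.24, 8.45 and 8.40 in activin B, against 8.92, 8.96 and 9.09 in vehicle, a larger separation than that of DLL1. The filter favored wide separations, since the DLL1 signals, 8.59 to 9.06, did not themselves span 0.5. EHF, an epithelial ETS factor, had 9.66, 9.77 and 9.85 in activin B, against 9.97, 10.15 and 10.24 in vehicle, and like DLL1 did not pass (adjusted p = 0.156 by limma). RAB30, a small GTPase of the Golgi, had 7.5, 7.64 and 7.75 in activin B, against 8.07, 7.99 and 8.15 in vehicle. It fell, with a log2 change of -0.44 ± 0.07 (SE, adjusted p = 0.0285 by limma). The probe sets of GJB2, ADM and SMAD1 were called lower as well. Their log2 changes were -0.62, -0.45 and -0.55, with adjusted p of 0.00121, 0.0252 and 0.000722 by limma.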

How the data were processed

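Gene expression was measured in 3 activin B-treated and 3 vehicle-treated samples. The authors deposited log2 signals per probe set, made from their scanner files by RMA in Chipster. RMA equalizes the distributions of the arrays, which removes any shift shared by most transcripts, and compresses differences near background. Scan dates are not used here.

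Probe sets took their names from the platform annotation, with gene identifiers matched to RefSeq for 41037 of 41091 single-symbol probe sets. A further 1801 had several symbols and 11721 are unnamed here. After 62 controls were left out, limma 3.58.1 (R 4.3.3) compared the groups with empirical Bayes (4 residual and 10.8 prior degrees of freedom), as the study did, with Benjamini-Hochberg adjustment over 54613 probe sets and a threshold of 0.05. All member probe sets are reported. Other genes were named by rule: in each pathway list up to 3 with the smallest p and up to 2 brightest, and the 5 patterns most like the member with the smallest p. HES1, PECAM1 and line markers were named outside the rule, with their values known. The members and lists were chosen with earlier results of these data known. Some genes of the lists are not reported here. The p-values reflect only how these samples varied, and the number of arrays limits the precision. Alternatives were other normalizations, priors, weights, filters, 1 value per gene, the replicate number as a block and leaving out each array. The steps were tested on simulated data. Figures were drawn with matplotlib 3.10.9.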

Additional observations from a re-analysis of the deposited data

How the results depend on the processing

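Of 17 alternatives, none called a Notch receptor or ligand higher, and 2 called 1 probe set lower, DLL1 224215_s_at in each: array weights (adjusted p = 0.0440) and the replicate number as a block (log2 change -0.34, adjusted p = 0.0397 by limma). The block called 44 probe sets lower over the whole array, against 26 without it. Whether shared numbers mark paired samples is not given in the labels. The deviations of same-numbered arrays correlated at 0.16, 0.04 and 0.19, and every array correlated best with its own number, a hint from the data and not from the design; no pairing was assumed. No pathway list gene was called under any alternative. Over all probe sets, 40 were higher and 26 lower. With only probe sets of mean 7.5 or more, 24 were higher, with the brightest probe set of each gene 22, and with the mean of all probe sets of a gene 15 higher and 10 lower, where fewer features were tested. Without single arrays, 25 to 50 were higher and 7 to 26 lower; those over 1.5 times away were 26 and 25 higher without activin B replicate 2 and vehicle replicate 2, and 7 to 13 lower without any array but activin B replicate 3, fewest without vehicle replicate 2.

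Of 373 recomputed changes of members, 24 turned sign, in 12 probe sets and at most 0.09 in size. Averaging probe sets gave 0.01 for NOTCH2, 0.00 for NOTCH3, -0.01 for DLL3 and -0.01 for JAG2. Without single arrays, the probe sets that turned sign ran from -0.06 to 0.01 for NOTCH2 202443_x_at, -0.01 to 0.10 for 210756_s_at, -0.09 to 0.16 for NOTCH3 203237_s_at, -0.11 to 0.01 for 203238_s_at, -0.07 to 0.09 for NOTCH4 205247_at, -0.03 to 0.04 for DLL3 222898_s_at, -0.07 to 0.06 for DLL4 223525_at, -0.11 to 0.01 for JAG1 229924_s_at, -0.11 to 0.06 for 231183_s_at, -0.11 to 0.04 for JAG2 209784_s_at and -0.02 to 0.10 for 32137_at. None of these passed under any setting. With a median standard error of 0.069 on the log2 scale, changes of this size could not be told from 0.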
